A study of Mus musculus with 4 samples.

Results

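In intestinal CD4+ T cells, 6 cytokine and regulator genes were followed cell by cell: *Csf2*, *Csf1*, *Tnf*, *Lta*, *Ltb* and *Bhlhe40*. They were found by symbol, as 6 of the 13265 genes of the deposited table, and were chosen by their levels across conditions and clusters in these same cells, so that what follows describes them and tests nothing. *Csf2* encodes GM-CSF and *Csf1* encodes M-CSF, secreted factors that act on granulocytes, monocytes and macrophages. *Tnf*, *Lta* and *Ltb* encode the neighbouring ligands of the TNF family: TNF is an inflammatory cytokine made as a membrane protein and shed, lymphotoxin alpha is secreted as a homotrimer or held at the membrane by lymphotoxin beta, and the lymphotoxins organise lymphoid tissue in the gut. BHLHE40 is a basic helix-loop-helix repressor that activated T cells induce and that is known to be needed for GM-CSF production by helper T cells.

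Small intestines of mice aged 7 to 8 months gave the sorted YFP+CD4+ T cells, in which an Il-17a-CRE allele switches on YFP in cells that have expressed *Il17a*, so that the label follows cells after they stop making IL-17A. All groups were on the C57BL/6 background and carried this Cre and the floxed-stop YFP reporter, and each sample was a pool of mice profiled by droplet 3' single-cell RNA-seq. TGFbR-KO mice had floxed *Tgfbr2* alleles and so lost the receptor in Il17a-expressing cells, TGFbR-CA mice had a constitutively active *Tgfbr1* behind a floxed stop, and TGFbR-WT mice were littermates without floxed alleles. The table held 2975 cells of 1 TGFbR-KO sample, 1098 of 1 TGFbR-CA sample and 1007 TGFbR-WT cells, split by the endings of their names into 709 cells (the larger set) and 298 cells (the smaller set) that nothing ties to one or the other of 2 TGFbR-WT samples. Both conditions were set against the same TGFbR-WT cells. With 1 sample of each modified genotype, no test between conditions could be made, and a ratio of levels of at least 1.5 was used as a rule of size.

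Cells held a median of 3802.5 corrected UMIs (2955 to 5110), and the corrected values keep no record of the original depth. 32 cells carried a barcode found in more than 1 set, 14 barcodes being shared by TGFbR-KO and the larger TGFbR-WT set. T cell markers were at a summed level of 95.2 to 114.8 per 10000 corrected UMIs in the 4 sets of cells, and macrophage, monocyte and dendritic cell markers at 1.91 to 2.23, most of it *Cst3*. *Tgfbr2*, of which the deletion removes only a part, was at 1.48 in TGFbR-KO and 1.73 in TGFbR-WT, which checks nothing in a 3' assay. *Tgfbr1* was at 0.792 in TGFbR-CA and 0.219 in TGFbR-KO, and the TGFbR-WT sets were at 0.367 (larger) and 2.79 (smaller), so that TGFbR-CA was under the smaller set. Whether these UMIs include transcripts of the active *Tgfbr1* is not known, so that they do not check the label either. Conditions are named below by the labels of the cells, which no value here checks. Cells are described by the 8 clusters that the authors deposited: 1 Tumorigenic, 2 CTL (cytotoxic), 3 GC-TFH and 4 TR-TFH (follicular helper cells of germinal centres and resident in tissue), 5 Cycling, 6 Migratory, 7 Activated and 8 Pre-tumorigenic. Clusters were made from the same genes, so levels by cluster are a description, and clusters 1 and 2 held 361 and 321 TGFbR-KO cells but only 5 and 13 TGFbR-WT cells and 2 and 3 TGFbR-CA cells.

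The genes lie at 4 places in the GRCm38 genome. *Csf2* is on chromosome 11 from 54247271 to 54249667 on the minus strand, *Csf1* on chromosome 3 from 107741048 to 107760469 on the minus strand, and *Bhlhe40* on chromosome 6 from 108660629 to 108666925 on the plus strand. *Ltb* (chromosome 17, 35194439 to 35196320, plus strand), *Tnf* (35199381 to 35202007, minus strand) and *Lta* (35203165 to 35205351, minus strand) stand within 10913 bases, *Ltb* and *Tnf* being 3060 bases apart and *Tnf* and *Lta* 1157 bases apart. Promoter windows of RefSeq (GRCm38.p6, 250 bases before to 50 after a start) were found for 5 of the 6 genes, all but *Bhlhe40*. They were searched on both strands for the NF-kB consensus, the E-box CACGTG, the AP-1 site TGANTCA and the cyclic AMP element TGACGTCA, which occur in 8.46%, 7.15%, 7.81% and 1.79% of all 32851 windows. The windows of *Csf2*, *Tnf* and *Lta* held none of these letters, the *Csf2* window being taken at a RefSeq start 232 bases upstream of the GENCODE gene. *Csf1* and *Ltb* each held 1 match, and it was the same 10 bases, GGAAAGTCCC, which read the NF-kB consensus on the minus strand of the window, 154 bases before the RefSeq start of *Csf1* and 87 before that of *Ltb*. The RefSeq start of *Ltb*, at 35194507, lies downstream of the GENCODE start at 35194439, so that the match is nearer to the latter. Both windows are shown because the same match stands before a gene that was higher in TGFbR-KO and before one that was not; they run 5′ to 3′ along the gene, with the match in capitals.
Csf1 promoter, chr3:107760420-107760719, minus strand: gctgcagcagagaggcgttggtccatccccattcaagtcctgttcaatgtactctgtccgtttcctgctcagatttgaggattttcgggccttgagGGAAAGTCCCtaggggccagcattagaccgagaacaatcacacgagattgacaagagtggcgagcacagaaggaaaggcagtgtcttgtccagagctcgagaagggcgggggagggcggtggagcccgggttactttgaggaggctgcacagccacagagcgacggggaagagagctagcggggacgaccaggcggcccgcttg
Ltb promoter, chr17:35194257-35194556, plus strand: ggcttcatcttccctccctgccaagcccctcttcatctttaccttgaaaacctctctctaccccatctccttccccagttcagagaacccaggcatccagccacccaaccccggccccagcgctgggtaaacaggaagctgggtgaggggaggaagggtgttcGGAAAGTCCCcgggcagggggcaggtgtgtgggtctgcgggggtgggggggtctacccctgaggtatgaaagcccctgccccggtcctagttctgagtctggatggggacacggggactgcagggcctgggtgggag

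Of the 6 genes, all of which passed the minimum of 200 corrected UMIs, *Csf2*, *Csf1*, *Bhlhe40* and *Tnf* were at 1.5 times the TGFbR-WT level or more in TGFbR-KO, against 4.35% of the 7490 genes past that minimum, and none was lower by that size, against 10.5%. *Csf2* and *Csf1* had 471 of their 474 and 384 of their 423 UMIs in TGFbR-KO and passed the minimum only through it, so that they had to differ and the count supports nothing. The same 4 genes were higher than each TGFbR-WT set taken alone, as were 2.94% of genes, and none was lower than each, as were 5.43%. *Lta* and *Ltb* stayed within the spread of the TGFbR-WT sets. Over all 7490 genes the median log2 ratio of TGFbR-KO to TGFbR-WT, with 0.1 added to levels, was -0.13, while it was 2.31 for *Csf2*, 1.95 for *Bhlhe40*, 1.69 for *Csf1*, 0.62 for *Tnf*, 0.04 for *Ltb* and -0.14 for *Lta*.

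**Figure D1:**
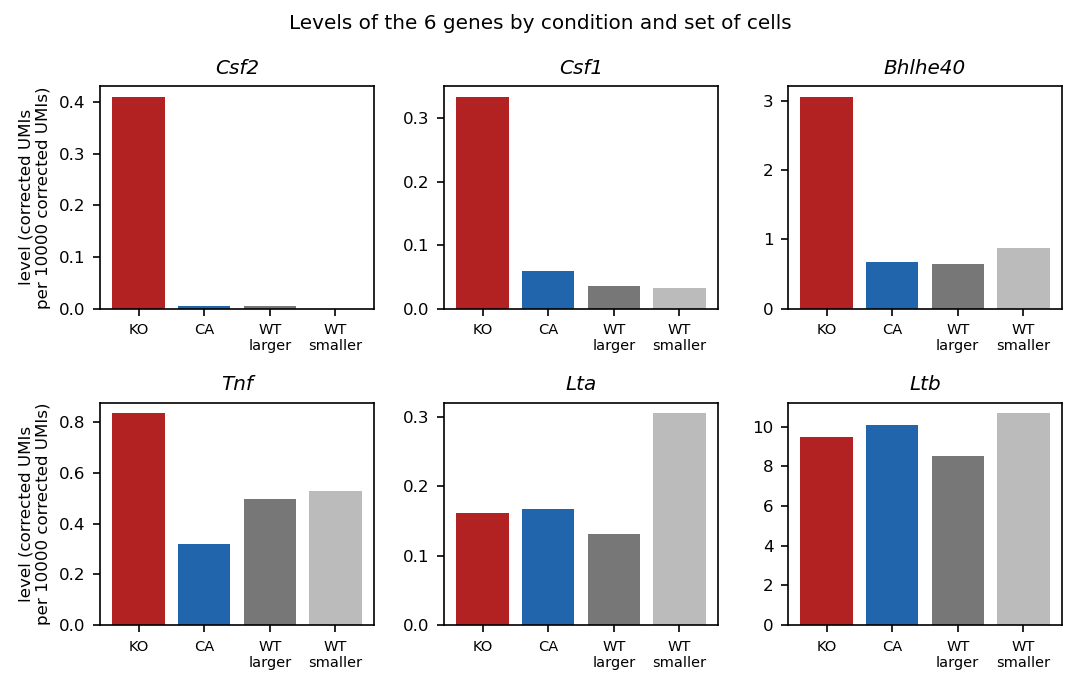
Level of each gene (y axis, corrected UMIs per 10000 corrected UMIs, its own scale from 0 in each panel) in TGFbR-KO, TGFbR-CA and the larger and smaller sets of TGFbR-WT cells (x axis), 1 bar for each set of cells and no error bar because each is a single pooled value. The TGFbR-KO bar of *Csf2* is at 0.410 with the others at or under 0.00456, whereas the bars of *Ltb* run from 8.55 to 10.7.

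*Csf2*, the GM-CSF gene, was almost absent outside TGFbR-KO. It was above 0 in 174 of 2975 TGFbR-KO cells (5.85%, exact 95% interval 5.03 to 6.75%), in 2 of 1098 TGFbR-CA cells (0.182%, 0.0221 to 0.656%) and in 1 of 1007 TGFbR-WT cells (0.0993%, 0.00251 to 0.552%). The smaller TGFbR-WT set had 0 of 298 cells, which allows a share of up to 1.01%. These intervals cover counting error only, as do all those below, and leave out differences between animals. The summed level per 10000 corrected UMIs was 0.410 in TGFbR-KO, 0.00456 in TGFbR-CA and 0.00269 in TGFbR-WT, from 471, 2 and 1 corrected UMIs. With corrected UMIs taken as counts, the ratio of TGFbR-KO to TGFbR-WT was 153 with an exact interval of 27.3 to 6040 (99.7 without clusters 1 and 2, 89.0 with the clusters weighted by their TGFbR-WT shares), and that of TGFbR-CA to TGFbR-WT was 1.70 with an interval of 0.0884 to 100.1, which says nothing of a direction. Few cells carried much of it: 105 of the 174 positive cells had a single UMI, and the 5 highest cells, in clusters 8, 1, 8, 3 and 1, held 20.6% of all *Csf2* UMIs.

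Within TGFbR-KO, *Csf2* was concentrated in the clusters named Pre-tumorigenic and Tumorigenic. Cluster 8 was at 1.85 per 10000 and cluster 1 at 1.56, with 37 of 230 cells (16.1%, 11.6 to 21.5%) and 76 of 361 cells (21.1%, 17.0 to 25.6%) above 0. The share was therefore higher in cluster 1 and the level in cluster 8, where a single cell held 35 UMIs, and the intervals of the shares overlapped. The cycling cells stood at 0.341 and the germinal centre follicular helper cells at 0.244, and 15 of the 30 UMIs of the latter came from 1 cell. The remaining clusters stood at 0.0899 or less, and cluster 4 had 1 UMI in 519 cells, a share of 0.193%, the lowest of the clusters, at a median of 3575 corrected UMIs per cell against 3647.5 in cluster 8. The cytotoxic cluster 2, which together with cluster 1 is nearly particular to TGFbR-KO, had only 8 UMIs in 8 of 321 cells. Cluster 1 had 6.30 times the level of the other clusters together and 46.9% of all *Csf2* UMIs, and clusters 1, 2 and 8 had 82.8%.

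Cluster 8 allows a comparison in which the conditions have cells of the same name. *Csf2* was above 0 in 0 of 79 TGFbR-WT cells of cluster 8, which allows up to 3.80% (exact upper bound 4.56%), and in 0 of 83 TGFbR-CA cells, which allows up to 3.61% (4.35%), against 16.1% in TGFbR-KO. Both exact bounds lie under the lower bound of the TGFbR-KO interval, which compares the counting error of cells only. With 1 sample of each modified genotype, and *Csf2* chosen by its levels in these same cells, it is no test between conditions. The summed level of 14 early response genes, such as *Fos*, *Junb* and *Hspa1a*, which dissociation of tissue can raise, was 380 in cluster 8 of TGFbR-KO, 254 in TGFbR-WT and 244 in TGFbR-CA, and in TGFbR-KO it was 169 in cluster 1 and 28.6 to 53.8 in the other clusters. Within TGFbR-KO it thus moved with *Csf2* across the clusters. Cluster 8 of TGFbR-WT and of TGFbR-CA stood above cluster 1 of TGFbR-KO in these genes and had no *Csf2* UMI. The part of these genes in the result was not tested.

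**Figure D2:**
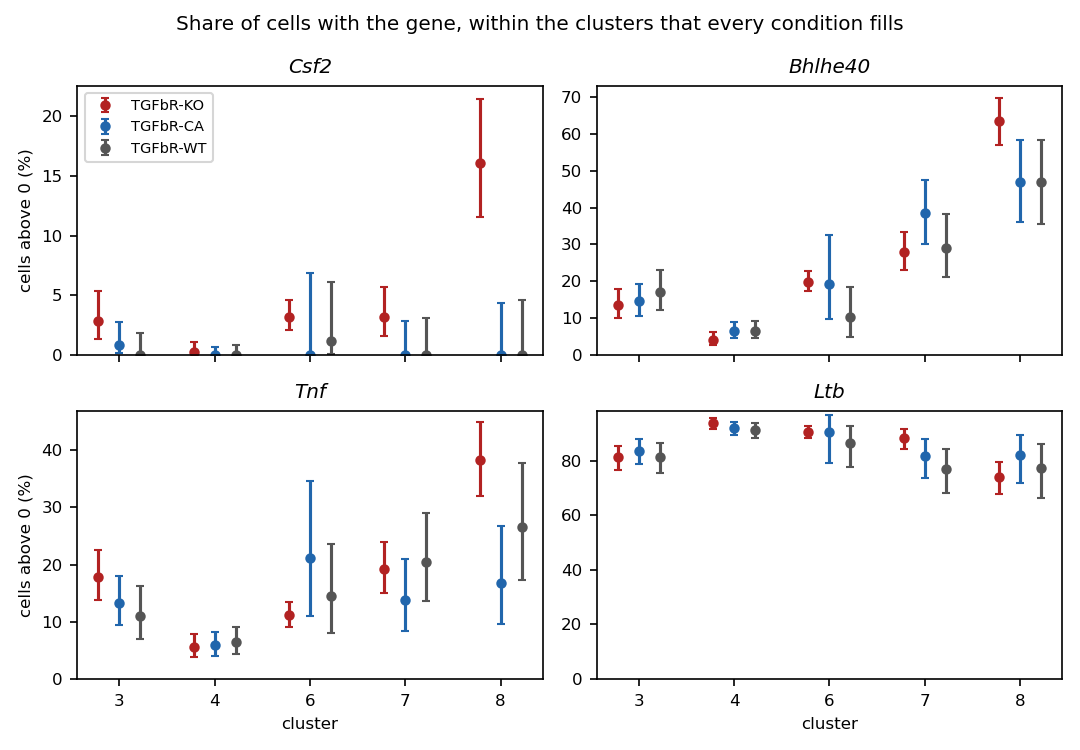
Share of cells above 0 (y axis, percent, with exact 95% intervals as bars) for *Csf2*, *Bhlhe40*, *Tnf* and *Ltb* in the clusters that had at least 30 cells in each condition (x axis), in TGFbR-KO, TGFbR-CA and pooled TGFbR-WT cells. In cluster 8, *Csf2* is at 16.1% in TGFbR-KO and at 0 in both other conditions, and *Ltb* is above 70% throughout.

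*Csf1*, the M-CSF gene, was also higher in TGFbR-KO, with another order of clusters than *Csf2*. It stood at 0.335 per 10000 in TGFbR-KO (160 cells, 5.38%, 4.59 to 6.25%), at 0.0593 in TGFbR-CA (23 cells, 2.09%), and at 0.0359 and 0.0330 in the larger and smaller TGFbR-WT sets (12 cells together, 1.19%). TGFbR-KO was thus at 9.57 times the TGFbR-WT level, at 5.36 times without clusters 1 and 2, and at 5.89 times with its clusters weighted by their TGFbR-WT shares. In TGFbR-KO the highest level was in the cytotoxic cluster 2, at 0.860 with 41 of 321 cells, next to cluster 1 at 0.786 with 38 of 361 cells, and the cycling cluster 5 at 0.682; the intervals of the shares of these 3 clusters overlapped. Cluster 8, the highest for *Csf2*, was at 0.172 for *Csf1*, with 7 of 230 cells (3.04%). *Csf1* was therefore at 4.56 times the cluster 8 level in cluster 1, and *Csf2* at 0.846 times. In the clusters where TGFbR-WT had any *Csf1* UMI, TGFbR-KO was at 4.24 times its level in cluster 3, 4.30 times in cluster 4 and 3.20 times in cluster 7, on 6, 2 and 5 TGFbR-WT UMIs. TGFbR-WT had 0 UMIs in the others, clusters 1, 2, 5, 6 and 8, where it had 5, 13, 45, 89 and 79 cells. In clusters 6 and 8 this allows a share of up to 4.06% and 4.56% (exact upper bounds), above the TGFbR-KO shares of 2.05% and 3.04%. TGFbR-CA was at 1.70 times the TGFbR-WT level, from 26 and 13 UMIs, and its *Csf1* UMIs were all in clusters 3 and 4.

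*Tnf* differed less between conditions and was detected in all of them. Its level was 0.837 in TGFbR-KO (512 cells, 17.2%, 15.9 to 18.6%), 0.322 in TGFbR-CA (113 cells, 10.3%) and 0.499 and 0.528 in the larger and smaller TGFbR-WT sets (120 cells together, 11.9%). The ratio of TGFbR-KO to TGFbR-WT was 1.65, and it was 1.46 without clusters 1 and 2 and 1.27 when the TGFbR-KO clusters were weighted by their TGFbR-WT shares, both under the rule of size. The highest TGFbR-KO level was again in cluster 8, at 2.17 (38.3% of cells), followed by cluster 1 at 1.82 (35.5%), and then by the activated cluster 7 at 1.04 and cluster 3 at 0.901. Within cluster 8, TGFbR-WT was at 1.60, the larger set being at 1.87 and the smaller at 1.49. TGFbR-CA was lower there, at 0.596 (14 of 83 cells), which is 0.371 times TGFbR-WT, and in cluster 7, at 0.357 against 0.787, and in both clusters under each TGFbR-WT set. In cluster 6 TGFbR-CA was above both sets, at 0.559 against 0.407 and 0.296, from 12 UMIs in 52 cells. Over all cells TGFbR-CA was at 0.633 times TGFbR-WT, and *Tnf* was the only one of the 6 genes lower by the rule of size, against 7.21% of all genes; *Csf1* and, from 2 and 1 UMIs, *Csf2* were the higher ones, against 2.46%. Set against each TGFbR-WT set, *Csf1* was higher, as were 1.26% of genes, and *Tnf* lower, as were 2.75%.

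*Lta* and *Ltb*, which flank *Tnf* on either side, did not follow it. *Lta* was at 0.161 in TGFbR-KO (5.14% of cells), 0.167 in TGFbR-CA (5.19%) and 0.132 and 0.305 in the larger and smaller TGFbR-WT sets (4.23% and 10.7%), so both modified genotypes lay between the TGFbR-WT sets. The smaller set was at 2.32 times the larger, and 10.2% of all genes were higher in it by the rule of size and 11.9% lower. In TGFbR-KO and TGFbR-CA its highest level was in the germinal centre follicular helper cells, at 0.357 and 0.289. In TGFbR-WT these cells were at 0.297 and 0.290 in the larger and smaller sets, and they were not the highest in either: cluster 4 was at 0.374 in the smaller set, and cluster 8 at 0.329 in the larger, from 3 UMIs in 27 cells. In pooled TGFbR-WT they were the highest of the clusters with at least 30 cells, at 0.295 against 0.239 in cluster 8 and 0.193 in cluster 4. *Ltb* was detected in most cells: at 9.50 in TGFbR-KO (83.7%), 10.1 in TGFbR-CA (87.5%), and 8.55 and 10.7 in the TGFbR-WT sets (82.5% and 87.6%). Within TGFbR-KO it ran against *Csf2* and *Bhlhe40*, with the highest level in the tissue-resident follicular helper cells of cluster 4 (12.8, 93.8% of cells) and low ones in clusters 5, 1 and 8, at 3.69, 5.25 and 5.63. Cluster 1 was at 0.520 times the other clusters. In cluster 8, *Ltb* was at 5.63 in TGFbR-KO and under both TGFbR-WT sets, which were at 6.48 and 8.27, and TGFbR-CA was at 7.24. It was above both sets in cluster 7, at 11.8 against 7.96 and 8.71, and in cluster 4, at 12.8 against 9.82 and 12.4.

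*Bhlhe40* was at 3.06 per 10000 in TGFbR-KO (928 cells, 31.2%, 29.5 to 32.9%), 0.664 in TGFbR-CA (176 cells, 16.0%), and 0.638 and 0.874 in the larger and smaller TGFbR-WT sets (160 cells together, 15.9%). TGFbR-KO was at 4.28 times TGFbR-WT, and TGFbR-CA fell between the TGFbR-WT sets. More cells held it in TGFbR-KO, and positive cells also held more, a mean of 3.78 UMIs against 1.66 in TGFbR-WT. Cluster 1 had 60.5% of the TGFbR-KO UMIs, with 339 of 361 cells above 0 (93.9%, 90.9 to 96.1%) and a level of 15.0, which is 10.9 times the other clusters. Cluster 8 followed at 6.44 (63.5% of cells) and cluster 5 at 4.06 (42.9%). With the clusters weighted by the TGFbR-WT shares, the ratio of TGFbR-KO to TGFbR-WT was 1.69 in place of 4.28, and it was 2.05 without clusters 1 and 2.

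Within clusters TGFbR-KO and TGFbR-WT parted in either direction. *Bhlhe40* of TGFbR-KO was above both TGFbR-WT sets in cluster 8 (6.44 against 2.59 pooled), cluster 6 (0.783 against 0.384) and cluster 5 (4.06 against 0.587, from 10 TGFbR-WT UMIs). In cluster 7 it was also above both, at 1.32 against 1.12 and 0.895 in the larger and smaller sets, but short of the rule of size. The summed early response genes were also higher in TGFbR-KO in cluster 5, at 53.8 against 18.1, and in cluster 8, at 380 against 254, and their part in the result was not tested. *Bhlhe40* was under both sets in the follicular helper clusters. It was at 0.650 against 0.804 in cluster 3, short of the rule of size, and at 0.130 against 0.229 in cluster 4, the latter from 25 and 38 UMIs in 519 and 460 cells. In cluster 8 the share of cells was 63.5% (56.9 to 69.7%) in TGFbR-KO, 46.8% (35.5 to 58.4%) in TGFbR-WT and 47.0% (35.9 to 58.3%) in TGFbR-CA, and the intervals overlapped slightly. The 5 TGFbR-WT cells and 2 TGFbR-CA cells of cluster 1 stood at 8.07 and 10.9, on 16 and 9 UMIs.

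**Figure D3:**
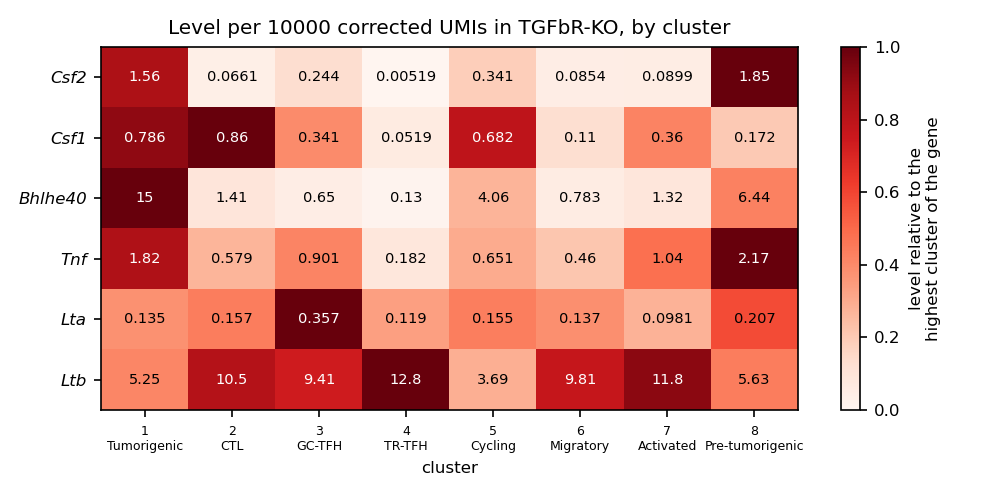
Level per 10000 corrected UMIs (number in each cell) of the 6 genes (rows) in the 8 clusters of TGFbR-KO (columns), shaded by the level relative to the highest cluster of that gene. *Csf2* and *Tnf* peak in cluster 8, *Bhlhe40* in cluster 1, *Csf1* in cluster 2, *Lta* in cluster 3 and *Ltb* in cluster 4, and *Csf2*, *Csf1*, *Bhlhe40* and *Tnf* are all lowest in cluster 4.

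Against the rest of TGFbR-KO, cluster 1 was higher by the rule of size for *Bhlhe40*, *Csf2*, *Csf1* and *Tnf*, where 6.42% of all genes were, and lower for *Ltb*, where 26% were. This count rests on genes that made the clusters and nothing is read from it. Set against cluster 8 alone, *Csf2* and *Tnf* were lower in cluster 1, at 0.846 and 0.838 times, and *Bhlhe40* was 2.33 times higher. Against cluster 2, *Csf1* was at 0.914 times.

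Pairs of the 4 genes that were higher in TGFbR-KO were counted in single cells. Counts over all TGFbR-KO cells pool clusters that differ in these genes, and the intervals take the expected number as fixed. *Csf2* and *Bhlhe40* were found together in 131 TGFbR-KO cells, where the product of the single shares gives 54.3 cells, a ratio of 2.41 (2.03 to 2.85). *Csf2* and *Tnf* were together in 70 cells (29.9 expected, ratio 2.34, 1.83 to 2.94), *Csf2* and *Csf1* in 21 cells (9.36 expected, 2.24, 1.39 to 3.42), *Csf1* and *Bhlhe40* in 105 cells (49.9 expected, 2.10) and *Bhlhe40* and *Tnf* in 253 cells (159.7 expected, 1.58). These 5 of the 15 pairs were at 1.5 times the expected number or more. The remaining pair of the 4, *Csf1* and *Tnf*, was at 1.27 (0.887 to 1.76). The pairs with *Lta* or *Ltb* ran from 0.729 to 1.34, and *Bhlhe40* and *Ltb* were together less often than expected, in 707 cells against 776 (0.911, 0.852 to 0.971). *Ltb* was in 2489 of the 2975 cells, so that pairs with it could not reach 1.5.

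Within cluster 1, 1 of the 15 pairs was at 1.5 times the expected number or more. Pairs with *Bhlhe40* could not reach that size in cluster 1, since 339 of its 361 cells held the gene. *Csf2* and *Bhlhe40* were together in 73 cells with 71.4 expected there (1.02, 0.819 to 1.25), since nearly every cell held *Bhlhe40*. *Csf2* and *Tnf* were still together more often than expected, in 39 cells against 26.9 (1.45, 1.04 to 1.94), and *Csf2* and *Csf1* in 14 cells against 8 (1.75, 0.964 to 2.90). In cluster 8, where 1.13 cells with both *Csf2* and *Csf1* were expected, too few to read, there were 0 (ratio up to 3.25), and *Csf2* and *Tnf* were at 0.989 times (0.547 to 1.63), an interval that overlaps that of cluster 1. *Bhlhe40* was in 146 of the 230 cells of cluster 8, at 1.28 (0.879 to 1.77) with *Csf2* and 0.985 (0.764 to 1.23) with *Tnf*. In cluster 2, *Csf1* and *Bhlhe40* were at 2.21 (1.46 to 3.18). Of the 361 cells of cluster 1, 175 held at least 2 of *Csf2*, *Csf1*, *Bhlhe40* and *Tnf* (48.5%, 43.2 to 53.8%) and 9 held all 4. In cluster 8 it was 80 of 230 cells (34.8%, 28.6 to 41.3%), in cluster 2 44 of 321 (13.7%) and in cluster 4 7 of 519 (1.35%). Over all cells, 14.3% of TGFbR-KO, 3.38% of TGFbR-WT and 2.64% of TGFbR-CA cells held at least 2, and 82, 0 and 0 cells held at least 3. A cell with 3 needs *Csf2* or *Csf1*, which few TGFbR-WT and TGFbR-CA cells held.

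**Figure D4:**
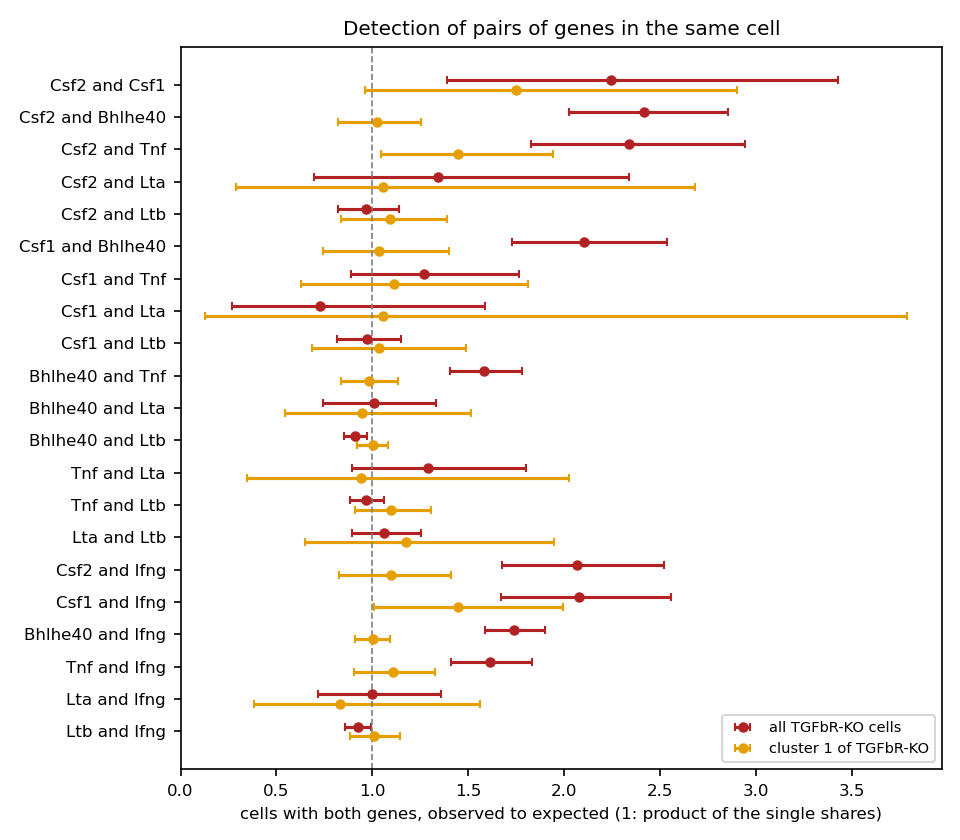
Cells with both genes of a pair, as the ratio of the observed to the expected number (x axis; the dashed line at 1 marks the product of the single shares), with exact 95% counting intervals, for the 15 pairs of the 6 genes and each of them with *Ifng* (y axis). Over all TGFbR-KO cells *Csf2* with *Bhlhe40* is at 2.41, and within cluster 1, where 339 of 361 cells held *Bhlhe40*, it is at 1.02.

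**Figure D5:**
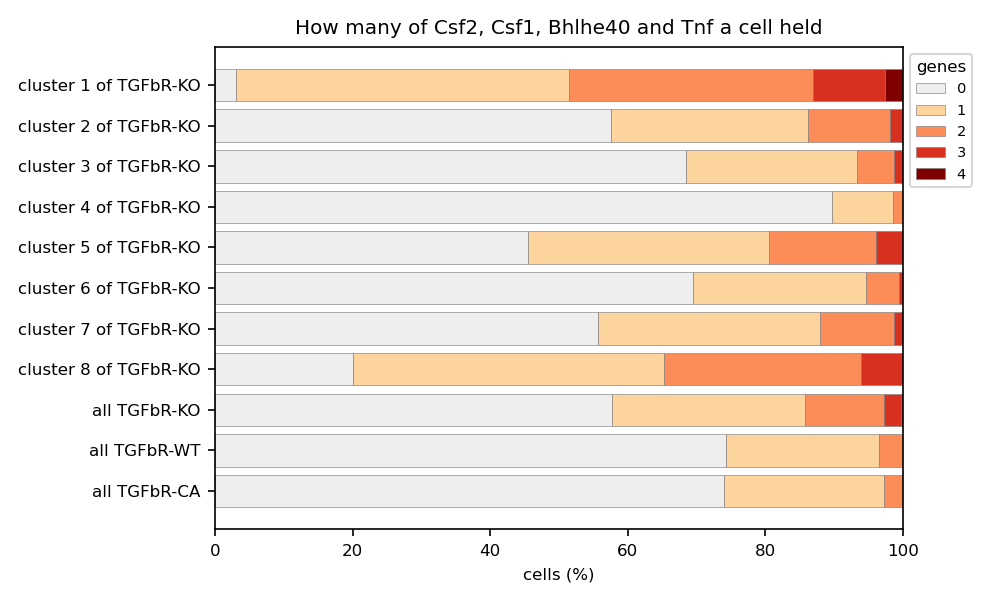
Share of cells (x axis, percent) that held 0 to 4 of *Csf2*, *Csf1*, *Bhlhe40* and *Tnf* (shading), for each TGFbR-KO cluster and for all cells of each condition (y axis). Cells with 2 or more make up 48.5% of cluster 1 and 34.8% of cluster 8, and cells with all 4 occur only in cluster 1 among the bars by cluster.

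*Ifng*, the type 1 effector cytokine, and *Il17a*, whose past expression defines the sorted cells, were read in the same cells. Over all TGFbR-KO cells, *Csf2* was found with *Ifng* in 94 cells where 45.5 were expected (2.07, 1.67 to 2.52) and with *Il17a* in 24 where 12.4 were expected (1.94, 1.24 to 2.87). These ratios pool clusters that differ in all of these genes. Within cluster 1 they were 1.09 (0.826 to 1.41) with *Ifng* and 1.12 (0.581 to 1.93) with *Il17a*. Within cluster 8 they were 1.30 (0.803 to 1.95) and 1.06 (0.487 to 1.97). Of the 174 *Csf2*-positive TGFbR-KO cells, 83 held *Ifng* alone, 13 *Il17a* alone, 11 both and 67 neither. *Csf1* was with *Ifng* in 87 cells (2.08, 1.67 to 2.56) but with *Il17a* in only 6 where 11.4 were expected (0.526, 0.193 to 1.14). Of the 38 *Csf1*-positive cells of cluster 1, 33 held *Ifng* where 22.8 were expected (1.44, 1.01 to 1.99). *Il17a* was in 1 of them where 5.37 were expected (0.186, 0.00472 to 1.03). *Bhlhe40* was found with both, at 1.74 and 1.62 times the expected number over all TGFbR-KO cells, and in TGFbR-WT and TGFbR-CA it was with *Il17a* at 2.50 and 2.93 times and with *Ifng* at 2.42 and 2.90 times. Within cluster 8 of TGFbR-KO it was at 1.03 (0.820 to 1.27) with *Ifng* and 1.16 (0.844 to 1.53) with *Il17a*. Within cluster 2 of TGFbR-KO it was at 1.31 (1.01 to 1.65) with *Ifng*. *Ifng*, *Tnf* and *Csf2* were together in 46 TGFbR-KO cells (1.55%, 1.13 to 2.06%), 28 of them in cluster 1 (7.76% of it) and 9 in cluster 8. They were together in none of the cytotoxic cluster 2, and in 0 of 1007 TGFbR-WT and 0 of 1098 TGFbR-CA cells. Only 8, 1 and 2 cells of these 3 groups held *Csf2* at all, so that these zeros restate its scarcity and nothing more is read from them.

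Among related genes, other TNF superfamily ligands were set beside the members. The counts of the lists that follow stand beside 4.35% of all genes higher and 10.5% lower in TGFbR-KO, and 6.42% higher and 26% lower in cluster 1. Of 14 listed, 10 were among the genes used and 6 had enough UMIs. *Fasl*, the death ligand of cytotoxic cells, was the only one higher in TGFbR-KO, at 0.246 against 0.0672 (3.65 times), and none was lower. The T cell help gene *Cd40lg* was at 3.68 against 2.58 and *Tnfsf8* at 5.25 against 5.83. The list's median log2 ratio was 0.32, beside -0.13 over all genes. In cluster 1, *Fasl*, *Cd40lg*, *Tnfsf9* and *Tnfsf11* were higher and *Tnfsf14* lower than in the other TGFbR-KO cells. Receptors for the TNF family ligands gave 0 of 3 genes higher or lower in TGFbR-KO (median 0.05), with *Tnfrsf1a* at 0.307 against 0.293 and *Tnfrsf1b* at 0.508 against 0.468. The lymphotoxin beta receptor gene *Ltbr* had 1 UMI in all cells. Of the receptors and related ligands of the colony stimulating factors, *Csf2ra* was the only one among the genes used, at 0.0340 in TGFbR-KO and 0.0968 in TGFbR-WT. Of the genes for TNF shedding, *Adam17*, the sheddase, was at 0.428 against 0.309, *Adam10* at 0.980 against 1.18, and *Rhbdf2*, which escorts the sheddase, was higher at 0.139 against 0.0914 (1 of 3; median 0.32), with the smaller TGFbR-WT set at 0.107.

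Of 16 measured regulators and relatives, 4 were higher in TGFbR-KO (median -0.15). They were *Tbx21*, the T-bet gene, at 0.287 against 0.0538 (5.33 times), *Rel* (1.76 times), *Runx3* (1.62 times) and the IL-23 receptor gene *Il23r* (1.54 times), and *Nfkb1* was lower, at 0.580 times. *Runx3* and *Il23r* were under 1.5 times 1 of the sets, *Runx3* at 1.91 against 1.06 and 1.41 and *Il23r* at 0.491 against 0.375 and 0.206. *Stat4* was at 1.31 against 1.18, *Batf* at 2.45 against 2.13 and *Runx1* at 0.885 times its TGFbR-WT level. *Rel* was 5.75 times higher in cluster 1 than in the other TGFbR-KO cells. The paralog *Bhlhe41* had 8 UMIs in all cells. Among 7 other effector cytokines with enough UMIs, *Ifng* (6.91 times), *Il22* (6.46), *Il2* (2.79) and *Il17f* (1.09 per 10000 against 0.546) were higher in TGFbR-KO, and *Il21* (0.404 times) and *Il4* were lower (median 0.87), while *Il17a* was at 1.90 against 1.29 and 5.73 in the TGFbR-WT sets. Some of these calls rest on the larger TGFbR-WT set: *Il4* was at 0.0671 in TGFbR-KO against 0.227 and 0.0659 in the larger and smaller sets, and *Il17f* at 1.09 against 0.411 and 0.824. That of *Il2*, with 336 UMIs in all cells, supports nothing either, since it passed the minimum only with those of TGFbR-KO. The 7 genes for decay factors that destabilise cytokine mRNAs were neither higher nor lower between conditions (median -0.13), with *Zfp36l1* at 5.37 against 5.90, *Zfp36* at 2.26 against 2.01 and *Zfp36l2* at 1.80 against 1.71. In cluster 1, *Zfp36*, *Zfp36l1*, *Zfp36l2* and *Zc3h12a* were higher than in the other TGFbR-KO cells and *Rc3h1* and *Rc3h2* lower. Of 12 early response genes 5 were higher in TGFbR-KO and 1 lower (median 0.39), *Egr2* and *Hspa1b* being short of 1.5 times against 1 of the TGFbR-WT sets, *Junb* at 18.2 against 9.04 and *Jun* at 7.45 against 11.2, and their summed level was 74.9 in TGFbR-KO, 44.9 in TGFbR-CA and 42.8 and 71.6 in the larger and smaller TGFbR-WT sets.

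The genes most like each member were sought over 19 groups of at least 30 cells of 1 condition and cluster, by Pearson's r of log2 levels with 0.1 added. The groups come from the same few libraries and the same clusters, and r is a description. *Csf2* was most like *Nr4a2* (0.89), *Coq10b* (0.88) and *Ifrd1* (0.87), *Csf1* like *Il12rb2* (0.86), *Slamf7* (0.85) and *Klrg1* (0.84), and *Bhlhe40* like *Fasl*, *Tnfaip3* (both 0.92) and *Pim1* (0.91). *Tnf* was most like *Phlda1* (0.92), *Hk2* (0.86) and *Furin* (0.85), *Lta* like *E2f5* (0.81), *Pfdn2* and *Serp1* (both 0.78), and *Ltb* like *Clec2d* (0.95), *Kmt5b* and *Tnrc6b* (both 0.92). Among the members, *Bhlhe40* and *Tnf* were the closest pair (r 0.84, Spearman's rho 0.80), and *Bhlhe40* and *Ltb* the most opposed (r -0.61, rho -0.63). *Bhlhe40* and *Ifng* were at 0.90 by either measure.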

How the data were processed

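The authors sequenced sorted cells by the 10x Genomics 3' protocol, processed reads with Cell Ranger 3.1.0 on mm10 and cells with Seurat, kept cells of 1000 to 5000 genes and under 10% mitochondrial reads, normalised with SCTransform, integrated by RPCA, clustered, and removed gamma delta T and epithelial cells. The deposited table holds the natural log of 1 plus corrected UMIs, as normalised by the authors, with a cluster name for each cell. The log was undone, giving whole numbers within 1e-06 for every value, so no count model was used. Levels are a gene's corrected UMIs per 10000 corrected UMIs of the cells. Shares have exact Clopper-Pearson 95% intervals, and the limit for 0 is 3 counts. For pairs of genes, the interval of the share of cells with both was divided by the expected share. The expected number is thus taken as fixed, and a bound can pass the highest ratio that the single shares allow. The cells of the 2 TGFbR-WT samples could not be told apart and were pooled, and are given also by set of cell names. The study's methods put TGFbR-KO and TGFbR-CA in separate batches, each with TGFbR-WT cells, but no set is tied to a batch, so batch and genotype cannot be told apart. Scrublet, run through scanpy 1.11.5 within each set, called 43 of 5080 cells doublets (0.846%). They made up 0.134% of TGFbR-KO, 1.64% of TGFbR-CA, and 0.141% and 6.71% of the larger and smaller TGFbR-WT sets. These cells were kept in the values given and left out as an alternative. Cells were thinned to 2900 corrected UMIs as another, with no cell under it. Named genes are the 6 members, up to 6 genes of highest UMI sum per list, genes past the rule of size, and 3 genes most like each member. One listed regulator is not reported here. Members and lists were chosen with earlier results of these data known. Gene positions come from GENCODE M21. Calculations used numpy 2.4.6, scipy 1.17.1 and pandas 2.3.3, tested on simulated data.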

Additional observations from a re-analysis of the deposited data

Results flagged for a closer look

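*Bhlhe40* differed between TGFbR-KO and TGFbR-WT in opposite directions in different clusters, past 1.5 times and beyond both TGFbR-WT sets: the ratio was 6.91 in the cycling cluster 5, 2.04 in the migratory cluster 6 and 2.48 in cluster 8, and 0.565 in the tissue-resident follicular helper cluster 4. The difference between clusters was not tested. The smaller TGFbR-WT set had only 4 cells in cluster 5 and 16 in cluster 6. The summed level of early response genes was 53.8 in TGFbR-KO and 18.1 in TGFbR-WT in cluster 5, and 380 and 254 in cluster 8, and its part in the difference was not tested.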

How the results depend on the processing

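The corrected UMIs carry no original depth, genes near 0 such as *Csf2* in TGFbR-WT rest on single UMIs, and there is 1 sample of each modified genotype. No paired analysis was possible because TGFbR-KO and TGFbR-CA have 1 sample each and TGFbR-WT cells are tied to no sample. For the ratio of TGFbR-KO to TGFbR-WT, *Tnf* went under 1.5 without clusters 1 and 2 (1.459) and with the TGFbR-WT cluster shares (1.266), *Lta* was 1.224 against the larger set and 0.5284 against the smaller, and *Ltb* 0.8881 against the smaller. For TGFbR-CA to TGFbR-WT, *Csf2* was 1.144 and *Bhlhe40* 1.04 against the larger set, *Bhlhe40* 1.003 as mean UMIs per cell and 0.0008237 as a difference of mean log values, *Tnf* 0.6842 as mean UMIs per cell, *Lta* 1.265 and 0.5461 against the larger and smaller sets, and *Ltb* 0.9431 against the smaller. *Csf2* gives no ratio against the smaller set, which has 0 UMIs. Cluster 1 was at 0.8462 for *Csf2*, 0.8383 for *Tnf*, 0.6507 for *Lta* and 0.9323 for *Ltb* against cluster 8 alone, and at 0.9143 for *Csf1* against cluster 2 alone; its ratio was not run in TGFbR-WT and TGFbR-CA, with under 20 cells. Within cluster 1, 1 pair of genes was at 1.5 times the expected number or more in place of 5, *Bhlhe40* and *Tnf* were at 0.9817 and *Bhlhe40* and *Ltb* at 1.003. Pairs with *Bhlhe40* could not reach 1.5 there, since 339 of 361 cells held it, so that part of this fall was fixed in advance. In the other clusters together, which again pool clusters that differ in these genes, 6 pairs were at 1.5 times or more. In cluster 8 alone 2 pairs were, and in cluster 2 alone also 2. Of the 18 genes named as most like a member, 4 stayed with Spearman's rho and 10 with a minimum of 1000 UMIs. Beyond that limit on pairs with *Bhlhe40*, the cause was not tested for any of these. Leaving out doublets or shared barcodes changed no direction and no side of 1.5 for the level ratios, and the 4 genes higher in TGFbR-KO were also at 1.5 or more against either TGFbR-WT set, where a ratio exists.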
